A study of Mus musculus with 15 samples.

Results

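The adrenergic receptors Adrb1, Adrb3, Adra1a and Adra1b, the receptor kinase Adrbk1 (now named Grk2) and the adenylyl cyclases Adcy5, Adcy6 and Adcy9 were followed in mouse hearts. These 8 genes were matched by name in the annotation of the array, and all of their probes were used, which gave 14 of the 41174 distinct probes that were not controls. The hearts formed 3 groups of 5 arrays. Treated db/db hearts came from mice homozygous for the leptin receptor mutation (C57BL/KLS-leprdb/leprdb) that ate rosiglitazone, a PPARγ agonist, in their chow at 5 mg/kg/day for 4 months. Untreated db/db hearts had that genotype without the drug, and db/+ hearts came from nondiabetic mice with 1 mutant allele (C57BL/KLS-leprdb/lepr+). All 15 mice thus carried the db allele, no treated db/+ mice were compared, and age and sex were not given in the sources used here. RNA of each whole heart, labeled with Cy5, was hybridized with a Cy3-labeled universal mouse reference RNA, and each value below is the log2 ratio of heart to reference unless a single channel is named. Where the heart channel is tested alone, it is the log2 processed signal after quantile normalization, and signals given per heart are processed signals as deposited.

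Adrenaline and noradrenaline reach the heart muscle cell through β-adrenergic receptors, which couple to the stimulatory G protein and adenylyl cyclase. The cAMP made by the cyclases activates protein kinase A, which raises the rate and force of contraction and speeds relaxation. α1-Adrenergic receptors couple instead to Gq and phospholipase C and are linked to growth of the heart muscle cell.

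Each probe is a 60-base oligonucleotide, and 8 of the 14 are shown, with at least 1 for every receptor and for the receptor kinase, and both for Adcy5, whose probes gave different answers below. Coordinates are those of the array files (mouse build mm8), and a span of more than 60 bases means that the files place the probe in separate blocks of the genome. Capitals mark the TAG stop codon at the end of the Adrb3 probe.
Adrb1 A_51_P203827 (chr19:56776002-56776061, plus strand): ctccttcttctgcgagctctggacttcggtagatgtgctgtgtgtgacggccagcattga
Adrb3 A_51_P179442 (chr8:28692781-28693200, minus strand): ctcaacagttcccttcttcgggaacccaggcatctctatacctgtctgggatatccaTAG
Adra1a A_51_P447229 (chr14:65682001-65682060, plus strand): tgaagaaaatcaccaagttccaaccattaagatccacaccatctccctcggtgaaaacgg
Adra1b A_51_P276766 (chr11:43678802-43678861, minus strand): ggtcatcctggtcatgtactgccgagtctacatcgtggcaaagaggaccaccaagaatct
Adrbk1 A_51_P460302 (chr19:4287243-4287390, minus strand): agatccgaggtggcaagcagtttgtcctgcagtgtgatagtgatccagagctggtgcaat
Adrbk1 A_52_P580974 (chr19:4290838-4291264, minus strand): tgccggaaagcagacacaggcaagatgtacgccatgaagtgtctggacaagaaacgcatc
Adcy5 A_52_P449208 (chr16:35219324-35219383, plus strand): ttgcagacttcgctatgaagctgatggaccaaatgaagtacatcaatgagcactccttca
Adcy5 A_51_P199041 (chr16:35219384-35222052, plus strand): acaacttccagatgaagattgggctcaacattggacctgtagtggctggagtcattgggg
The Adcy5 probes abut, with 0 bases between them on the genome. By contrast, the Adra1b probe shown lies 60007 bases from A_52_P639048 (chr11:43618735-43618794, minus strand), and 1913 bases separate the Adrb1 probe shown from A_52_P322181 (chr19:56777975-56778034, plus strand). The other Adra1a probe, A_52_P424778, lies at chr14:65687286-65687345, plus strand, and the other Adrbk1 probe, A_52_P664532, at chr19:4286008-4286067, minus strand. Adcy9 was read by A_51_P501538 (chr16:4203015-4203074, minus strand), and for the Adcy6 probe A_51_P243134 the files place only 15 bases (chr15:98418007-98418021, minus strand). Which exon or untranslated region each probe lies in was not looked up, since no annotation of this build was used here.

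Treated replicates 3 and 4 were closer to each other than any other pair within a group. The median absolute deviation of their heart channel difference was 0.144 on the log2 scale, against 0.265 to 0.603 in the other 29 such pairs, so they were averaged and counted as 1 sample, which left 4 treated, 5 untreated and 5 db/+ samples. The arrays were spread over 4 slides, of which 1 held 3 untreated db/db arrays with 1 db/+ array and 1 held 2 treated with 2 untreated db/db arrays. Of the other slides, 1 held only db/+ replicates 1 to 4 and 1 held only treated replicates 3 to 5. Treated db/db and db/+ arrays shared no slide, so for them slide and group cannot be told apart within a slide. A probe was tested where the Cy5 signal carried the software's flag for being well above background on 4 or more arrays of any group, which 27593 probes did, among them 13 of the 14. The cardiomyocyte markers Myh6, Tnnt2, Actn2, Myl2, Ryr2 and Tnni3 were all measured, and none of the 6 passed the test in the ratio in any comparison. In the heart channel alone, Ryr2 passed for treated db/db versus db/+ hearts (0.74, limma adjusted p = 0.049). Lepr, the mutated gene, had ratios of 3.04 ± 0.57 in treated db/db (SD, n = 4), 3.06 ± 0.35 in untreated db/db and 3.87 ± 0.78 in db/+ hearts (SD, n = 5 each), and it passed in no comparison (lowest limma adjusted p = 0.15). The db mutation alters the splicing of the long receptor isoform and leaves the gene in place, so this level checks no label. Between 56.4% and 75.6% of the probes had a heart signal well above background on an array. Of the marker lists for other cell types, those of vascular smooth muscle, endothelium, fibroblasts and blood held 0 called genes in the ratio in each comparison. In the heart channel alone, the blood marker Alas2 passed for untreated db/db versus db/+ hearts (-1.10, limma adjusted p = 0.023). Alas2 and Hba-a1 passed there for treated db/db versus db/+ hearts (-1.46 and -1.10, limma adjusted p = 0.0062 and 0.013). Slc4a1 and Ptprc passed in neither. The summed signal of the 4 blood markers ran from 189180 to 371840 in treated db/db hearts. It ran from 259030 to 405080 in untreated db/db and from 382790 to 687720 in db/+ hearts.

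None of the 13 probes passed an adjusted p of 0.05 in any of the 3 comparisons (limma, Benjamini-Hochberg over all 27593 probes). Of all probes, 7.76% passed for untreated db/db versus db/+ hearts, 0% for treated versus untreated db/db hearts, and 8.7% for treated db/db versus db/+ hearts. At an unadjusted p of 0.05, 4 of the 13 probes passed for untreated db/db versus db/+ hearts, where 25.5% of all probes did. The count was 1 of 13 for treated versus untreated db/db hearts, where 8.78% of all probes passed, and 1 of 13 for treated db/db versus db/+ hearts, where 26.8% did. The median difference of the 13 was 0.10 on the log2 scale for untreated db/db versus db/+ hearts, beside 0.01 over all tested probes. It was 0.00 for treated versus untreated db/db hearts, beside -0.01, and 0.04 for treated db/db versus db/+ hearts, beside 0.01. The 3 comparisons share samples and are not independent. In the ratio the sample ranges of the groups overlapped for all 13 probes in every comparison. Of all tested probes, 7.81% had ranges that did not overlap for untreated db/db versus db/+ hearts, 4.58% for treated versus untreated db/db hearts, and 14.6% for treated db/db versus db/+ hearts. Whole-heart RNA cannot tell apart fewer cells of a type and less RNA per cell.

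**Figure D1:**
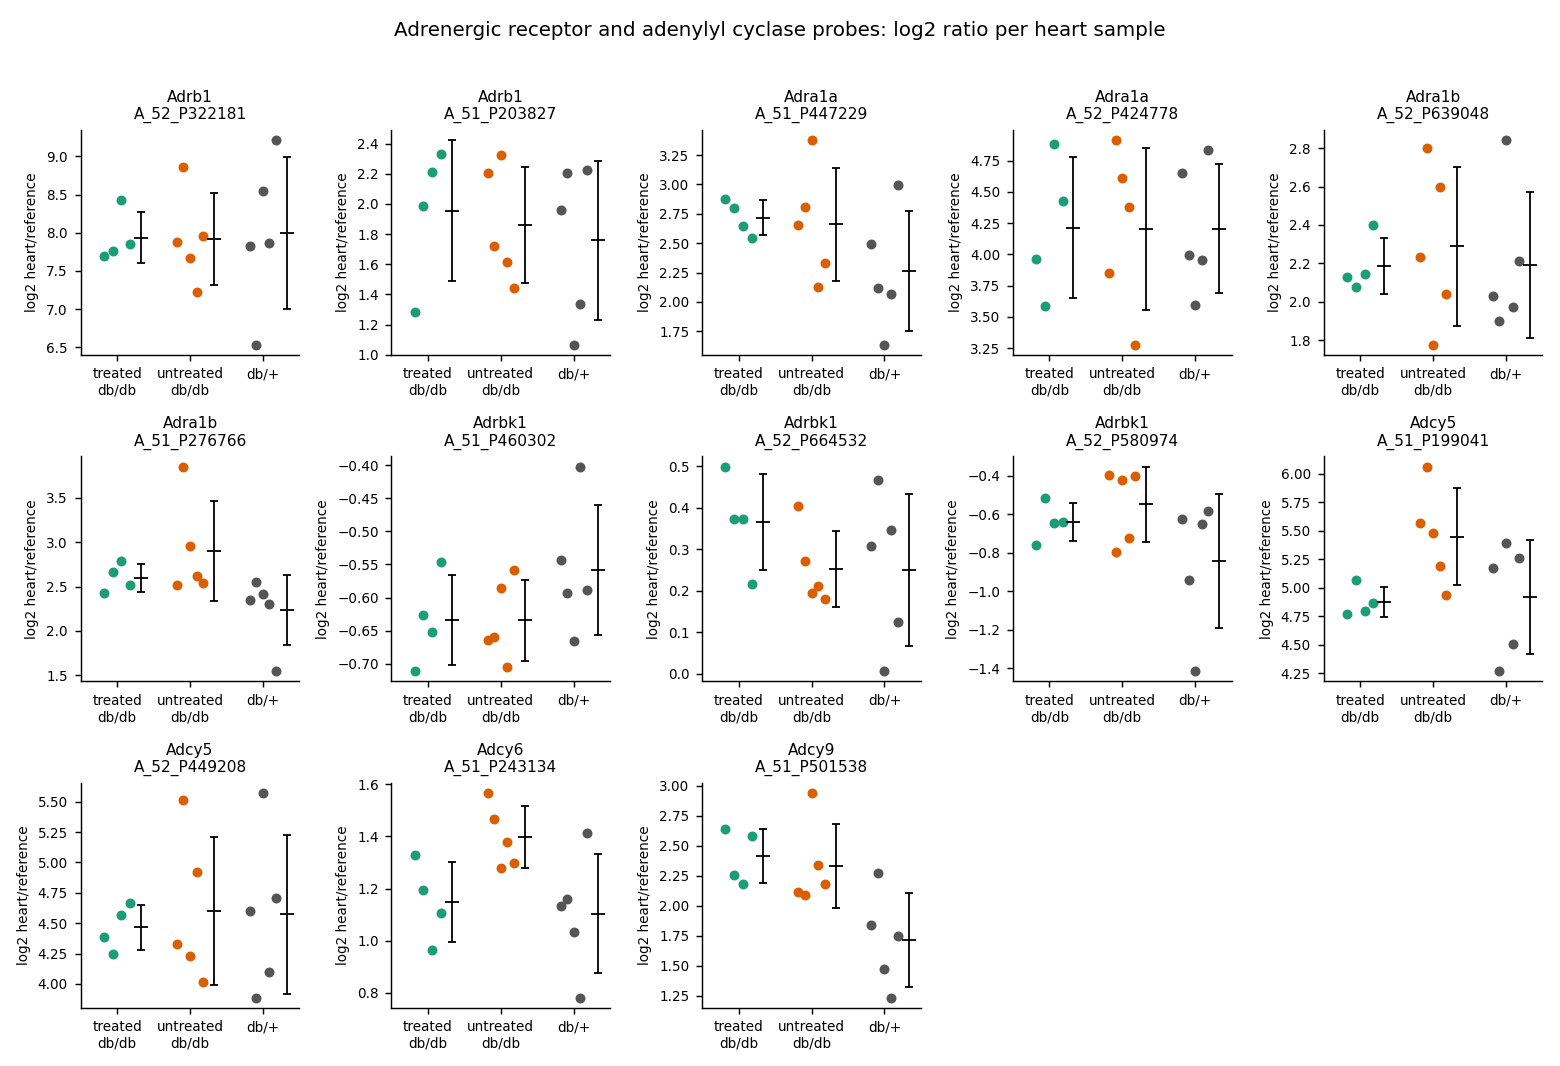
Log2 ratio of heart to reference (vertical axis, own scale in each panel) for the 13 tested probes, with 1 point per sample in 4 treated db/db, 5 untreated db/db and 5 db/+ hearts, and the group mean with its SD beside the points. The groups overlapped in every panel, and the Adcy9 points of both db/db groups lay mostly above those of db/+ hearts.

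Adrb1, the main β-receptor of the heart muscle cell, did not pass on either scale. A_51_P203827 had ratios of 1.28, 1.99, 2.21 and 2.33 in treated db/db hearts, 2.20, 1.72, 2.33, 1.61 and 1.44 in untreated db/db hearts, and 1.96, 2.20, 1.07, 1.34 and 2.22 in db/+ hearts. The ranges of the groups covered each other almost wholly. The difference was 0.10 for untreated db/db versus db/+ hearts, with a 95% interval between -0.48 and 0.68, and 0.09 for treated versus untreated db/db hearts, with an interval between -0.52 and 0.71. A_52_P322181 had heart signals of 4329.9, 7575, 4844 and 5846 in treated db/db hearts, 4375, 3064, 5411, 5839 and 3719 in untreated db/db hearts, and 5349.7, 6657, 2201, 3965 and 5148 in db/+ hearts. The reference of this probe passed that flag on 1 of 15 arrays only, and its ratios ran between 6.54 and 9.21 within db/+ hearts alone. The heart channel differences of this probe were -0.08 for untreated db/db versus db/+, 0.14 for treated versus untreated db/db and 0.06 for treated db/db versus db/+ hearts (limma adjusted p = 0.87, 0.84 and 0.89).

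Adrb3, best known as the β-receptor of adipocytes, had 1 probe, which matches a splice variant. Neither channel reached the level called well above background on any of the 15 arrays. Its heart signals were 37.2, 24.8, 14.8 and 12.01 in treated db/db hearts, 8.23, 10.4, 9.001, 19.7 and 24.3 in untreated db/db hearts, and 11.5, 6.94, 12.6, 15.9 and 9.59 in db/+ hearts. No fold is given for it, and other Adrb3 transcripts were not analysed here. Of 7 adipocyte markers 5 were tested, and Cfd and Adipoq fell in untreated db/db versus db/+ hearts (-3.55 and -2.39, limma adjusted p = 0.00083 and 0.010) and in treated db/db versus db/+ hearts (limma adjusted p = 9.1e-05 and 0.014). Plin1, Cidec and Fabp4 were tested and did not pass. They differed by -0.05, 0.24 and -0.32 for untreated db/db and by -0.20, -0.72 and 0.47 for treated db/db versus db/+ hearts. Cfd was well above background on 1 treated db/db, 3 untreated db/db and 5 db/+ arrays, and Adipoq on 0, 1 and 4 in that order. The mean ratio over the 5 markers ran from 1.08 to 1.46 in treated db/db, 1.13 to 2.89 in untreated db/db and 2.14 to 3.41 in db/+ hearts. Their summed heart signal ran from 509700 to 707870 in treated db/db, 471630 to 621440 in untreated db/db and 335640 to 590500 in db/+ hearts. Of 4 skeletal muscle markers 1 was called, Mylpf, which fell by 0.62 on the log2 scale for untreated db/db and by 0.90 for treated db/db versus db/+ hearts (limma adjusted p = 0.016 and 0.0031). Their summed signal ran from 109570 to 165320 in treated db/db, 122820 to 173910 in untreated db/db and 58375 to 180370 in db/+ hearts. Of 3 hepatocyte markers tested, Apoa2 rose by 2.26 for untreated db/db versus db/+ hearts (limma adjusted p = 0.027), and their summed signal ran from 165 to 6784 in treated db/db, 658 to 126270 in untreated db/db and 54.2 to 867 in db/+ hearts. The part of these cell types and of blood in the values of the 8 genes was not tested. Among sympathetic neuron markers, Th and Snap25 were too dim to test, and none of the 3 tested (Dbh, Npy and Prph) passed. The summed signal of these 3 ran from 179 to 989.6 in treated db/db, 102 to 685 in untreated db/db and 119.7 to 203 in db/+ hearts.

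Adra1a, the α1A receptor, passed the test for treated db/db versus db/+ hearts in the heart channel but not in the ratio as first fitted. A_51_P447229 had ratios of 2.88, 2.80, 2.64 and 2.54 in treated db/db hearts, 2.66, 2.81, 3.38, 2.13 and 2.33 in untreated db/db hearts, and 2.497, 2.12, 1.64, 2.07 and 2.99 in db/+ hearts. The difference of treated db/db from db/+ hearts was 0.45 with an SE of 0.27 (limma adjusted p = 0.30), and db/+ replicate 5 lay above all treated samples. Heart signals were 487, 539, 447 and 487 in treated db/db hearts, 272, 234, 504, 289 and 433 in untreated db/db hearts, and 256, 214, 119, 268 and 240.3 in db/+ hearts. All treated db/db samples lay above all db/+ samples, and the heart channel difference was 0.89 with an SE of 0.19 (1.85-fold, limma adjusted p = 0.012). For this comparison A_51_P447229 passed in 2 of 29 alternatives, the heart channel alone being 1 of them. At A_52_P424778 the heart channel difference was 0.64 with an SE of 0.18 (1.56-fold, limma adjusted p = 0.040), again without overlap. At that probe 0 of 15 arrays had a reference signal well above background. Its ratio differed by 0.01 with an SE of 0.36. For treated versus untreated db/db hearts the heart channel differences of 0.33 and 0.31 did not pass (limma adjusted p = 0.48 and 0.49).

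For Adra1b, the α1B receptor, the heart channel and the ratio gave different results at 1 probe. A_52_P639048 had heart signals of 22240, 24122, 14735 and 22949 in treated db/db hearts, 26495, 15469, 30893, 24500 and 32777 in untreated db/db hearts, and 7920.3, 12362, 8217, 14040 and 9838 in db/+ hearts. Every db/db sample was above every db/+ sample. With the heart channel alone, the difference was 1.23 with an SE of 0.18 for untreated db/db versus db/+ hearts (2.35-fold, limma adjusted p = 0.0012) and 0.72 with an SE of 0.19 for treated db/db versus db/+ hearts (1.64-fold, limma adjusted p = 0.030). On the slide shared by untreated db/db and db/+ arrays the heart channel difference was 1.39. The reference channel differed there by 1.33 and the ratio by 0.06. The Cy3 reference signal of this probe was 5083, 5714, 3332 and 4342 on the treated db/db arrays, 5627, 2222, 9008, 4053 and 7975 on the untreated db/db arrays, and 1941, 3314, 1147, 3572 and 2122 on the db/+ arrays. It differed by 1.14 for untreated db/db and by 0.74 for treated db/db versus db/+ arrays, neither past the threshold (limma adjusted p = 0.82 and 0.52). The 95% interval of the first ran between 0.44 and 1.84 (limma unadjusted p = 0.0038), and 0% of all probes passed in that reference comparison. In the ratio these differences were 0.10 with an SE of 0.21 and 0.00 with an SE of 0.22. A reference SD as large as that of this probe, 0.69, was found at 4.2% of all tested probes. The part of the reference channel in these differences was not tested.

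The other Adra1b probe, A_51_P276766, differed in the same direction on both scales. Its ratios were 2.42, 2.66, 2.78 and 2.52 in treated db/db hearts, 2.52, 3.85, 2.95, 2.62 and 2.54 in untreated db/db hearts, and 2.35, 2.55, 2.41, 2.31 and 1.55 in db/+ hearts. Untreated db/db hearts averaged 2.90 ± 0.56 and db/+ hearts 2.23 ± 0.39 (SD, n = 5 each), a difference of 0.66 with an SE of 0.25 (limma adjusted p = 0.11). The groups overlapped through the highest db/+ value and the lowest untreated db/db values. In the heart channel alone the difference was 1.01 with an SE of 0.27 (2.02-fold, limma adjusted p = 0.042), without overlap. This probe passed for untreated db/db versus db/+ hearts in 2 of 29 alternatives, the heart channel alone being 1 of them (lowest limma adjusted p = 0.033). Treated db/db hearts exceeded db/+ hearts by 0.36 in the ratio and by 0.89 in the heart channel, and neither passed (limma adjusted p = 0.40 and 0.063). The reference signal of this probe was well above background on 5 treated db/db, 4 untreated db/db and 3 db/+ arrays.

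Adrbk1, the kinase that phosphorylates agonist-occupied β-receptors and so uncouples them, had a probe with the narrowest intervals of the 13. A_51_P460302 had ratios of -0.71, -0.63, -0.65 and -0.55 in treated db/db hearts, -0.66, -0.66, -0.59, -0.71 and -0.56 in untreated db/db hearts, and -0.54, -0.59, -0.67, -0.40 and -0.59 in db/+ hearts. The difference was -0.08 for untreated db/db versus db/+ hearts, with a 95% interval between -0.23 and 0.08, and 0.00 for treated versus untreated db/db hearts, with an interval between -0.17 and 0.17. A_52_P580974 lies 3447 bases from it and differed by 0.30 with an SE of 0.15 for untreated db/db versus db/+ hearts (limma adjusted p = 0.24), with the lowest value of all samples, -1.42, in db/+ replicate 3. At A_52_P664532 the heart signal ran between 1554 and 8092 and the reference signal between 1196 and 6993, while the ratio stayed between 0.01 and 0.50. Its ratio differed by 0.00 for untreated db/db versus db/+, 0.11 for treated versus untreated db/db and 0.11 for treated db/db versus db/+ hearts.

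Adcy5 was read by its abutting probes, which gave like answers in the heart channel and different ones in the ratio. A_51_P199041 had ratios of 4.77, 5.06, 4.79 and 4.87 in treated db/db hearts, 5.57, 6.06, 5.48, 5.19 and 4.93 in untreated db/db hearts, and 5.17, 4.27, 5.40, 4.503 and 5.26 in db/+ hearts. Its difference was 0.53 with an SE of 0.24 for untreated db/db versus db/+ hearts and -0.57 with an SE of 0.25 for treated versus untreated db/db hearts, neither past the threshold (limma adjusted p = 0.18 and 0.54). A_52_P449208 had ratios of 4.39, 4.25, 4.56 and 4.67 in treated db/db hearts, 4.33, 5.52, 4.23, 4.92 and 4.02 in untreated db/db hearts, and 4.60, 3.89, 5.57, 4.10 and 4.71 in db/+ hearts, and a difference of 0.03 with an SE of 0.32 for untreated db/db versus db/+ hearts. In the heart channel alone, untreated db/db hearts exceeded db/+ hearts by 0.75 at A_51_P199041 and by 0.73 at A_52_P449208 (1.68-fold and 1.66-fold, limma adjusted p = 0.036 and 0.048). For this comparison A_51_P199041 passed in 2 of 30 alternatives and A_52_P449208 in 2 of 29 (lowest limma adjusted p = 0.025 and 0.023). The heart channel alone was 1 of these for each probe. The reference signal ran between 33.0 and 179 at A_51_P199041 and between 18.3 and 266 at A_52_P449208, although every array received the same reference RNA. The reference channel of untreated db/db exceeded that of db/+ arrays by 0.29 at A_51_P199041 and by 0.78 at A_52_P449208 (limma adjusted p = 0.83 and 0.82). Its part in the heart channel differences was not tested. On the slide with both groups the heart channel difference was 0.86 at A_51_P199041 and 0.75 at A_52_P449208. The reference channel differed there by 0.41 at A_51_P199041 and by 0.72 at A_52_P449208. For treated versus untreated db/db hearts the heart channel differences were -0.23 at both probes, and neither passed (limma adjusted p = 0.67 and 0.69).

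Adcy6, with Adcy5 a main cyclase of the heart muscle cell, had a steady reference channel, with an SD over the samples of 0.09. It had ratios of 1.33, 1.19, 0.97 and 1.11 in treated db/db hearts, 1.57, 1.47, 1.28, 1.38 and 1.30 in untreated db/db hearts, and 1.13, 1.16, 1.03, 0.78 and 1.41 in db/+ hearts. All 5 untreated db/db values exceeded those of db/+ replicates 1 to 4, and db/+ replicate 5 lay among them. The difference was 0.29 with an SE of 0.12 for untreated db/db versus db/+ hearts and -0.25 with an SE of 0.12 for treated versus untreated db/db hearts, and neither passed (limma adjusted p = 0.13 and 0.59). On the slide shared by untreated db/db and db/+ arrays the first was 0.03, where db/+ replicate 5 was the only db/+ array. On the slide shared by treated and untreated db/db arrays the second was -0.08. With slide as a random block Adcy6 (A_51_P243134) passed for untreated db/db versus db/+ hearts (0.35, limma adjusted p = 0.032). Under that setting 5033 of all 27593 probes passed in this comparison, beside 2141 without a block. The estimated correlation within slides was -0.114.

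Adcy9, a widely expressed membrane cyclase, came nearest to the threshold. Its ratios were 2.64, 2.26, 2.18 and 2.58 in treated db/db hearts, 2.11, 2.09, 2.94, 2.34 and 2.18 in untreated db/db hearts, and 1.84, 2.28, 1.48, 1.24 and 1.74 in db/+ hearts. Only db/+ replicate 2 reached into the range of the db/db samples, and the other 4 db/+ hearts lay below all of them. The mean was 2.41 ± 0.23 in treated db/db hearts (SD, n = 4), against 1.71 ± 0.39 in db/+ hearts (SD, n = 5), a difference of 0.70 with an SE of 0.21 (1.62-fold, limma adjusted p = 0.058). In untreated db/db hearts the mean was 2.33 ± 0.35 (SD, n = 5), a difference from db/+ hearts of 0.62 with an SE of 0.20 (1.53-fold, limma adjusted p = 0.076). Treated and untreated db/db hearts differed by 0.08, with a 95% interval between -0.38 and 0.54. Single arrays decided the call for Adcy9 (A_51_P501538): without db/+ replicate 2 the limma adjusted p was 0.027 for treated db/db and 0.034 for untreated db/db versus db/+ hearts, and without untreated db/db replicate 3 it was 0.035 for treated db/db versus db/+ hearts. Adcy9 passed in 5 of 30 alternatives for treated db/db versus db/+ hearts (limma adjusted p between 0.020 and 0.9999) and in 2 of 30 for untreated db/db versus db/+ hearts (between 0.024 and 0.81).

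Within the slide that held both groups untreated db/db and db/+ hearts differed by 0.64 at Adcy9. The reference channel of the Adcy9 probe was steady, as at Adcy6. After quantile normalization its SD over the samples was 0.08 on the log2 scale, beside a median of 0.13 over all tested probes. Heart signals were 12239, 11196, 7798 and 13735 in treated db/db hearts, 6384, 6544, 14261, 8979 and 8475 in untreated db/db hearts, and 5899, 8425, 3635, 4770.1 and 6288 in db/+ hearts. With the heart channel alone the difference was 0.69 for treated db/db and 0.54 for untreated db/db versus db/+ hearts, and neither passed (limma adjusted p = 0.077 and 0.16).

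**Figure D2:**
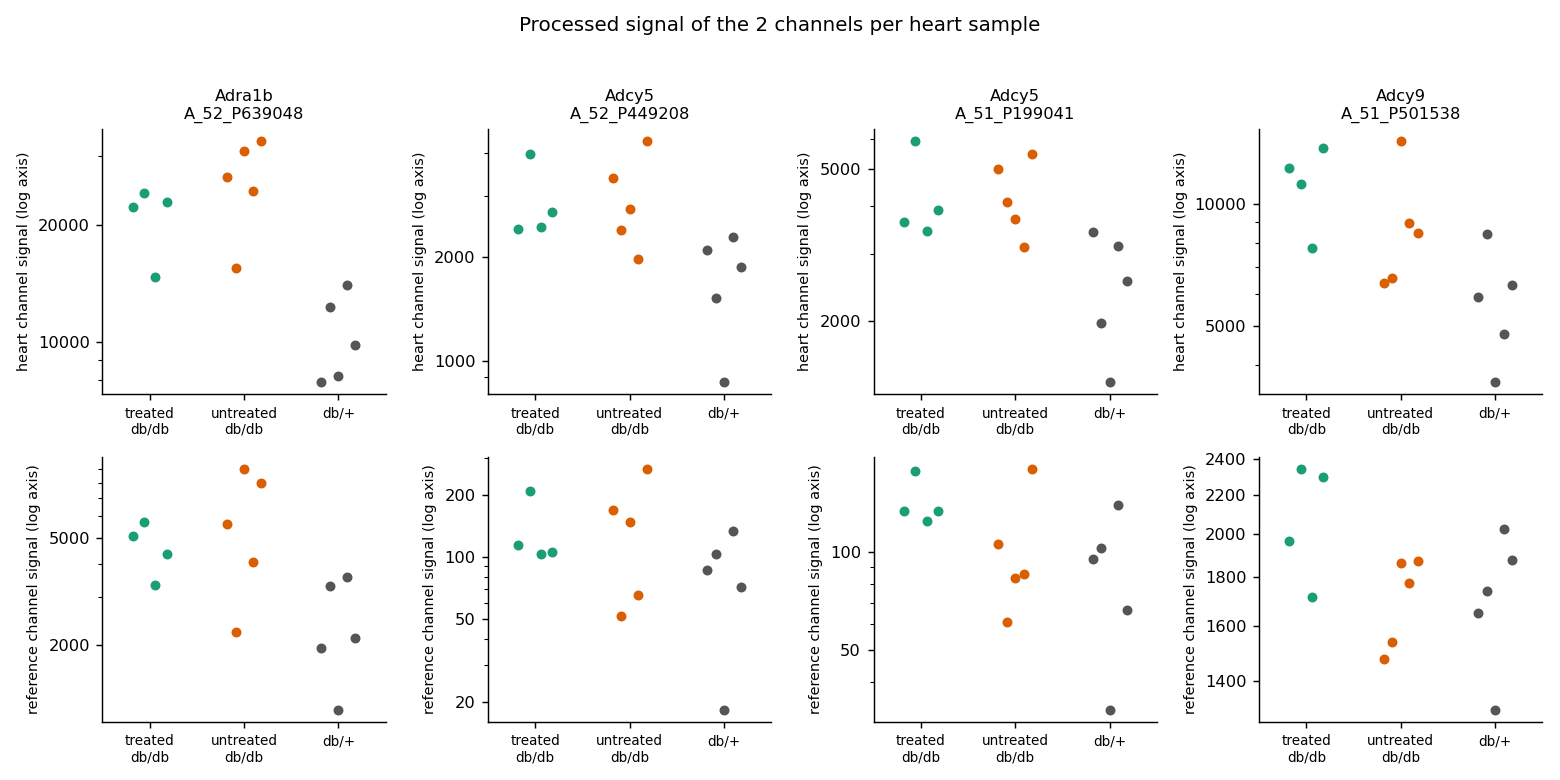
Processed signal in the heart channel (top, log axis) and the reference channel (bottom, log axis) for 1 Adra1b, 2 Adcy5 and 1 Adcy9 probes, with 1 point per sample in treated db/db, untreated db/db and db/+ hearts. At Adra1b A_52_P639048 all db/+ points lay below the db/db points in the heart channel and overlapped them in the reference channel, and at Adcy9 the reference signals stayed between 1305 and 2342.

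Taken alone, the heart channel called 4 of the 13 probes for untreated db/db versus db/+ hearts, both of Adra1b and both of Adcy5, all higher in db/db hearts, where 6.87% of all probes passed. For treated versus untreated db/db hearts it called 0 of 13 with limma, where 0.384% of all probes passed. There 3 of the 13 had an unadjusted p under 0.05, beside 14.2% of all probes. Those 3 were Adra1b A_52_P639048 (-0.51), Adrbk1 A_52_P664532 (-0.78) and Adcy6 (-0.32). For treated db/db versus db/+ hearts it called 3, both of Adra1a and Adra1b A_52_P639048, where 10.8% of all probes passed. In the heart channel 2 of the 13 did not overlap for untreated db/db versus db/+ hearts, beside 6.7% of all probes, 1 for treated versus untreated db/db hearts (Adcy6), beside 6.69%, and 3 for treated db/db versus db/+ hearts, beside 15.8%. Tested in that way, the reference channel called 0 of the 13 in each comparison, with 0% of all probes passing for untreated db/db versus db/+, 0.323% for treated versus untreated db/db and 0.0507% for treated db/db versus db/+ arrays.

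**Figure D3:**
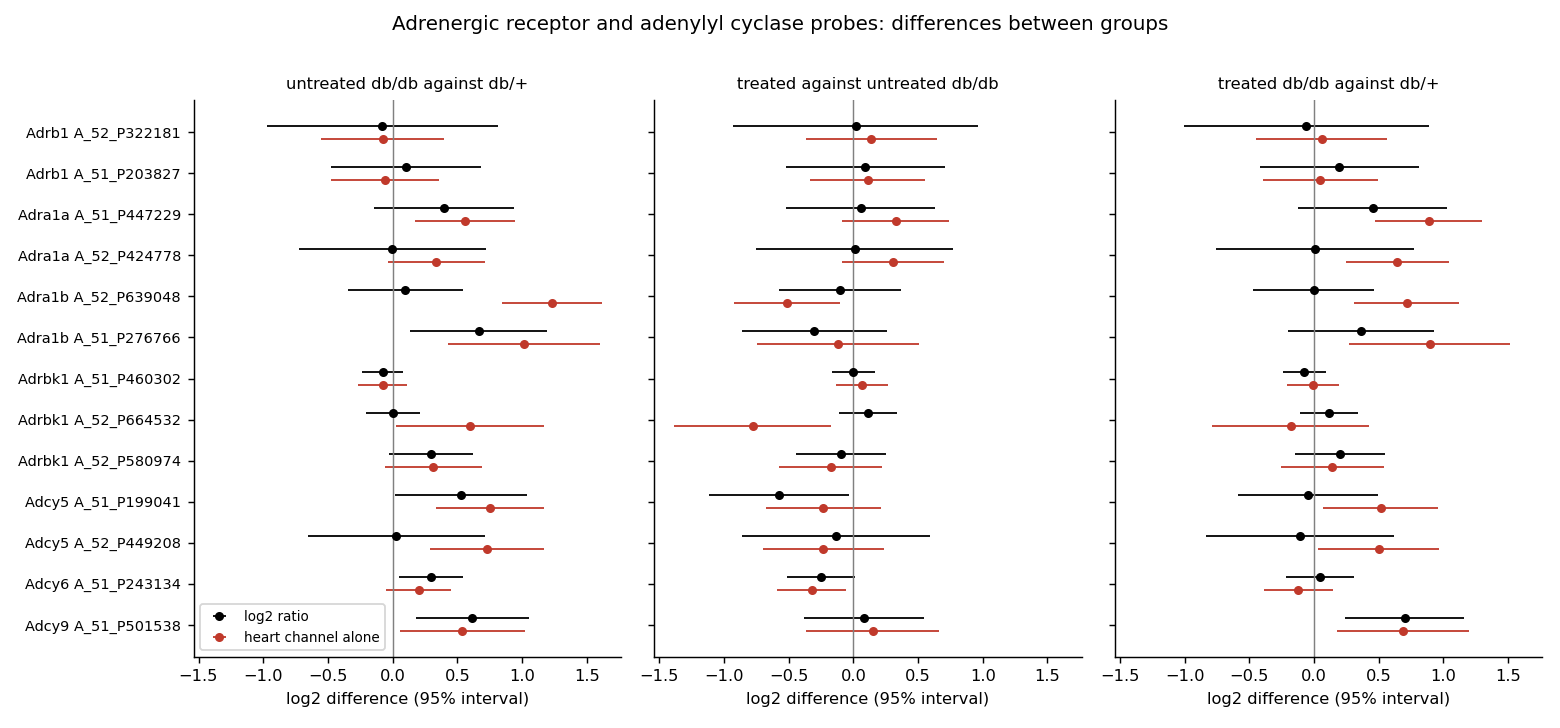
Log2 difference between groups (horizontal axis) with its 95% interval for the 13 tested probes, in the ratio of heart to reference (black) and in the quantile-normalized heart channel alone (red). The scales parted at Adra1b A_52_P639048, with 0.10 and 1.23 for untreated db/db versus db/+ hearts, and lay close at Adcy9, with 0.62 and 0.54.

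Over the 13 probes the SD of the reference signal ran between 0.05 at Adrbk1 A_51_P460302 and 0.91 at Adrb1 A_52_P322181. The 5 largest were those of Adrb1 A_52_P322181, Adra1a A_52_P424778, Adra1b A_52_P639048, Adrbk1 A_52_P664532 and Adcy5 A_52_P449208, at 0.67 or more, which 1.34% to 4.68% of all tested probes reached. The GC content of these 5 probes was between 26.7% and 43.3%, and that of the other 9 between 45% and 55%. The part of GC content was not tested.

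The genes whose ratio ran most like that of Adcy9 over the 14 samples were Nhlrc2 (Pearson r = 0.94), Prkacb (r = 0.94) and Pip5k1b (r = 0.94), of 12598 genes searched. The points share the slides and the reference RNA. Prkacb encodes the β catalytic subunit of protein kinase A. Its probe A_51_P380215 averaged 0.77 ± 0.31 in treated db/db (SD, n = 4), 0.83 ± 0.35 in untreated db/db and 0.22 ± 0.33 in db/+ hearts (SD, n = 5 each). That probe did not pass either, at 0.56 for treated db/db and 0.62 for untreated db/db versus db/+ hearts (limma adjusted p = 0.11 and 0.072). The other Prkacb probe, A_52_P432680, which stands for the gene in the pathway list below, differed by -0.01 for treated db/db and 0.00 for untreated db/db versus db/+ hearts (limma adjusted p = 0.96 and 0.99).

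Beyond the 8 genes, 96 genes of cAMP and adrenergic signaling were listed by role, 94 had a probe, and 87 were tested, each by the probe with the highest mean heart signal of those that were tested. By these lead probes, 2 of the 87 rose and 1 fell for untreated db/db versus db/+ hearts (3.45%, beside 7.76% of all probes). For treated versus untreated db/db hearts 0 passed with limma, beside 0% of all probes, and for treated db/db versus db/+ hearts 2 rose and 1 fell (3.45%, beside 8.7%). Their median difference was 0.00, -0.01 and 0.06 in these comparisons. Among the other adrenergic receptors, Adra1d and Adra2c were bright enough to test and neither passed. By their lead probes, none of the 4 other cyclases tested, of 7 listed, passed, nor did any of 15 genes for protein kinase A, Epac and anchoring proteins, 10 cardiac substrates and CREB factors, or 9 effectors of Gq.

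The 87 genes had 165 tested probes in all. Of these, 4 were called higher and 4 lower for untreated db/db versus db/+ hearts (4.85%), 0 for treated versus untreated db/db hearts, and 4 higher and 1 lower for treated db/db versus db/+ hearts (3.03%). For untreated db/db versus db/+ hearts 5 of the called probes were not the lead probe of their gene, and for treated db/db versus db/+ hearts 2 were not. These genes fall outside the rule for named genes and were chosen after their values were seen. Rgs3, a regulator that speeds the turning off of G proteins, had 3 of 5 probes called lower for untreated db/db versus db/+ hearts, at -0.45, -0.48 and -0.48 (limma adjusted p = 0.015, 0.010 and 0.011), while its lead probe was at -0.29 (limma adjusted p = 0.21) and the remaining one at 0.08. Gnai1, an inhibitory α subunit, had 1 of 4 probes called for untreated db/db versus db/+ hearts, at 0.55 (limma adjusted p = 0.023), with its lead probe at 0.25 (limma adjusted p = 0.27). Akap1, which anchors protein kinase A to mitochondria, had 1 of 3 probes called, at 0.67 for treated db/db and 0.74 for untreated db/db versus db/+ hearts (limma adjusted p = 0.018 and 0.0087). Its lead probe was at 0.33 and 0.36 (limma adjusted p = 0.081 and 0.055). Pde4d, a cAMP phosphodiesterase bound near the ryanodine receptor of the heart, had 1 of 3 tested probes called for treated db/db versus db/+ hearts, at 0.72 (limma adjusted p = 0.042), with its lead probe at 0.44 (limma adjusted p = 0.21).

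Adrbk2, the sister kinase of Adrbk1, rose in untreated db/db hearts. Its ratios were 1.82, 1.87, 2.01 and 2.14 in treated db/db hearts, 2.52, 2.15, 1.90, 2.401 and 2.06 in untreated db/db hearts, and 1.91, 1.68, 1.36, 1.38 and 1.81 in db/+ hearts. The untreated db/db and db/+ ranges overlapped by 1 value each. The difference was 0.58 with an SE of 0.14 (1.49-fold, limma adjusted p = 0.027), and another Adrbk2 probe differed by 0.47 (limma adjusted p = 0.093). Treated db/db hearts exceeded db/+ hearts by 0.33, which did not pass (limma adjusted p = 0.18). Adrbk2 was called for untreated db/db versus db/+ hearts in 21 of 30 alternatives.

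Gnao1, the α subunit of the inhibitory G protein Go, rose in treated db/db hearts. It had ratios of 0.80, 1.02, 0.86 and 1.01 in treated db/db hearts, 0.38, 0.30, 0.87, 0.88 and 0.87 in untreated db/db hearts, and 0.28, 0.30, 0.30, 0.11 and 0.19 in db/+ hearts. All treated db/db samples lay above all db/+ samples, and untreated db/db replicates 1 and 2 lay near the db/+ hearts. The difference of treated db/db from db/+ hearts was 0.68 with an SE of 0.13 (1.61-fold, limma adjusted p = 0.0079), and that of untreated db/db from db/+ hearts was 0.42 (limma adjusted p = 0.054). Gnao1 was called for treated db/db versus db/+ hearts in 29 of 30 alternatives and not with slide as a fixed block, under which 4 of all 27593 probes passed in that comparison.

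Pde7a, a cAMP-specific phosphodiesterase, rose in untreated db/db hearts. Its ratios were 1.08, 0.75, 0.997 and 0.92 in treated db/db hearts, 1.38, 1.17, 1.25, 0.86 and 1.504 in untreated db/db hearts, and 0.49, 0.82, 0.86, 0.84 and 0.90 in db/+ hearts. The difference of untreated db/db from db/+ hearts was 0.45 with an SE of 0.12 (1.37-fold, limma adjusted p = 0.043), with 1 untreated db/db heart inside the db/+ range, and another probe differed by 0.49 (limma adjusted p = 0.075). Pde7a was called in 10 of 30 alternatives.

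Among the genes that make, take up and break down catecholamines, Ddc, the decarboxylase that forms dopamine, fell in untreated db/db hearts. It had ratios of -2.16, -2.80, -2.44 and -2.08 in treated db/db hearts, -3.06, -2.22, -1.89, -2.76 and -2.59 in untreated db/db hearts, and -2.08, -1.27, -1.64, -2.05 and -1.27 in db/+ hearts. The difference of untreated db/db from db/+ hearts was -0.84 with an SE of 0.24 (limma adjusted p = 0.046), whereas another Ddc probe differed by -0.26 (limma adjusted p = 0.55). Slc22a3, an extraneuronal monoamine transporter, rose in treated db/db hearts. Its ratios were 2.80, 3.77, 2.54 and 2.505 in treated db/db hearts, 1.51, 2.16, 3.84, 2.08 and 2.48 in untreated db/db hearts, and 2.32, 1.52, 0.81, 0.84 and 1.25 in db/+ hearts. The difference of treated db/db from db/+ hearts was 1.55 with an SE of 0.44 (limma adjusted p = 0.043), without overlap, and 1.04 in the heart channel alone (limma adjusted p = 0.039). Its reference was well above background on 2 of 15 arrays. Sstr4, a Gi-coupled somatostatin receptor, fell in treated db/db hearts. Its ratios were 2.32, 2.75, 2.41 and 1.503 in treated db/db hearts, 3.35, 3.08, 3.12, 2.32 and 2.18 in untreated db/db hearts, and 2.65, 3.04, 3.67, 3.53 and 3.69 in db/+ hearts. The difference of treated db/db from db/+ hearts was -1.07 with an SE of 0.31 (limma adjusted p = 0.048), while another Sstr4 probe differed by 0.04 (limma adjusted p = 0.85). Ddc was called in 13 of 30 alternatives, Slc22a3 in 12 of 29 and Sstr4 in 13 of 30.

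**Figure D4:**
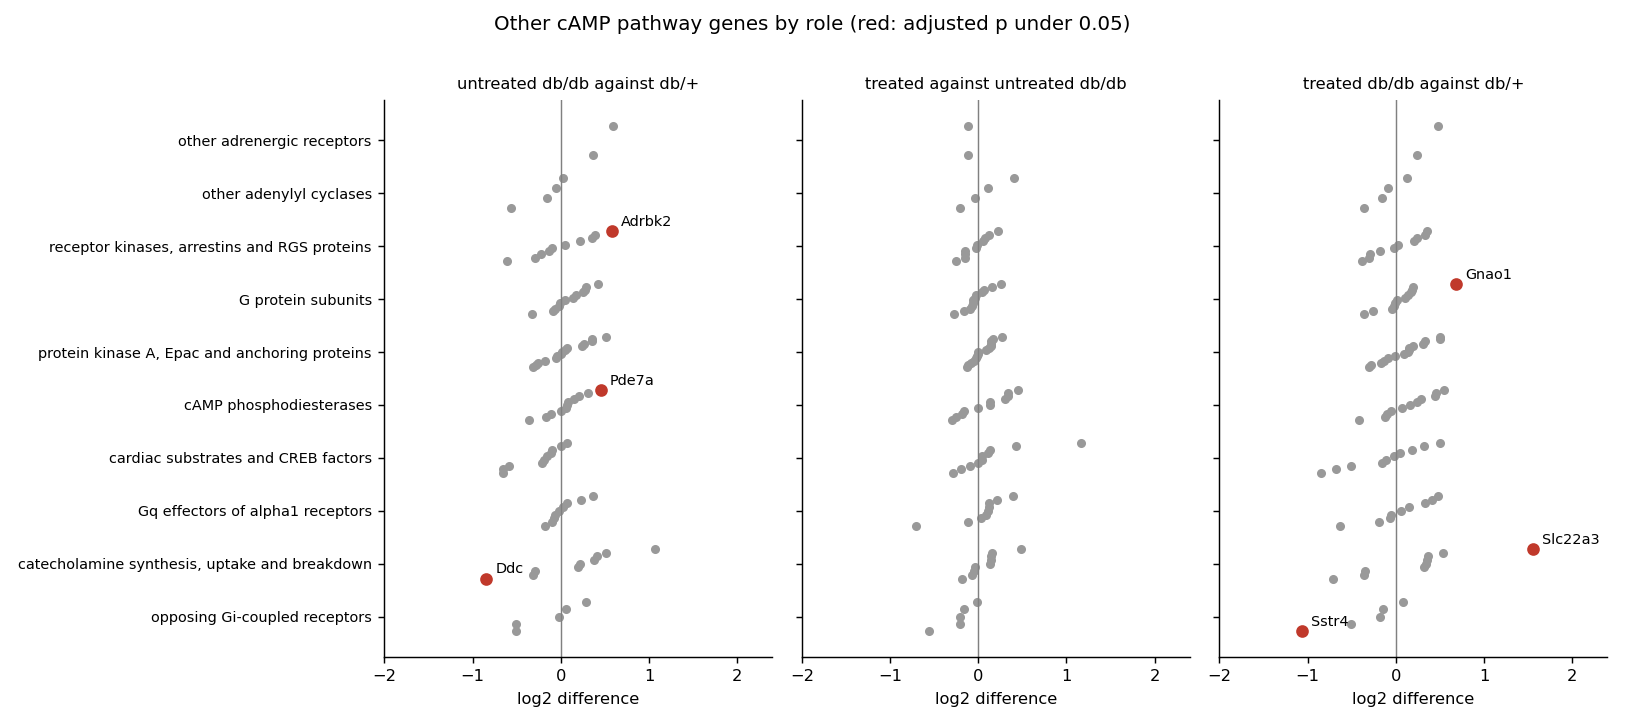
Log2 difference in the ratio of heart to reference (horizontal axis) for 87 cAMP pathway genes by role (vertical axis), 1 point per gene for its lead probe, with genes at an adjusted p under 0.05 in red and named. Adrbk2, Pde7a and Ddc passed for untreated db/db versus db/+ hearts, Gnao1, Slc22a3 and Sstr4 for treated db/db versus db/+ hearts, and 0 for treated versus untreated db/db hearts.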

How the data were processed

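Whole-heart RNA (Cy5) and a universal mouse reference (Cy3) were hybridized on Agilent 2-color arrays, and the authors extracted the spots with Agilent Feature Extraction 9.5.1. The deposited scanner files hold a log10 ratio of heart to reference that the authors background-corrected and LOWESS-normalized, the intensity of each channel, and other columns with software flags. A further deposited table repeats these log10 ratios. It was counted as an alternative, although it could not change a call. Ratios were converted to log2, outlier spots (0.922%) left out, spots of a probe averaged, and 3 groups fitted together with limma 3.58.1 (R 4.3.3), adjusting by Benjamini-Hochberg over 27593 probes. Single channels were fitted as log2 processed intensity after quantile normalization. The fit was tested on simulated data. Alternatives covered single channels, background correction, scaling, filters, slide and replicate blocks, array weights and each array left out. Every probe of the 8 genes is described, and pathway genes are named by adjusted p, up to 4 per role. The 8 genes and all lists were chosen with earlier results of these data known. The number of arrays limits the precision, and the labels describe 5 separate hearts per group. The SAM test of the methods was not run, since it rests on regrouped samples.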

Additional observations from a re-analysis of the deposited data

Results flagged for a closer look

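Among the log2 ratios of the 14 probes, 42 groups of 4 or 5 samples were examined for a sample standing apart from the rest of its group by Dixon's criterion, and 2 held one, where chance gives about 1 in 20. For Adra1b A_51_P276766, db/+ replicate 5 was at 1.55, with the nearest db/+ value at 2.31 and the highest at 2.55. Without that heart Adra1b A_51_P276766 differed by 0.49 for untreated db/db versus db/+ hearts (limma adjusted p = 0.19). For the Adrb3 probe, untreated db/db replicate 5 was at 0.58, with the others between 0.00 and 0.13, at signals not well above background.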

How the results depend on the processing

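Of 385 single-probe values of the 8 genes under the alternatives, 339 for untreated db/db versus db/+, 350 for treated versus untreated db/db and 326 for treated db/db versus db/+ hearts kept their direction and their side of the threshold. Another 10, 0 and 8 came to pass, and 36, 35 and 50 changed sign without passing. One turned round and passed, Adra1b A_52_P639048 for treated db/db versus db/+ hearts, at 0.72 in the heart channel alone. For treated versus untreated db/db hearts 0 probes of the 8 genes and 0 pathway genes were called in each limma alternative.

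For untreated db/db versus db/+ hearts the 13 probes gave 3 calls with normexp and loess, 4 in the heart channel alone, 2 with slide as a random block, and 0 to 1 leaving out 1 array. Over all probes, 2163, 1897, 5033 and 1185 to 2743 of 27593 passed under these settings, in that order. For treated db/db versus db/+ hearts they gave 1 with normexp and loess, 3 in the heart channel alone, and 1 each with the filter of both channels well above background on every array, with slide as a random block and with treated replicates 3 and 4 kept separate, and 0 to 1 leaving out 1 array. Over all probes, 2195, 2971, 2596, 5127, 3753 and 1093 to 2885 passed under these settings, in that order. These counts are of 27593 probes, and of 21458 under the filter of both channels. The 3 pathway genes called for untreated db/db versus db/+ hearts became 7 with normexp and loess, with both channels required on every array and with treated replicates 3 and 4 kept separate, 8 in the heart channel alone, 14 with slide as a random block, 1 without a filter and without treated replicates 3 and 4 together, and 0 with scaling between arrays, with slide as a fixed block and in a fit of only these groups. The 3 for treated db/db versus db/+ hearts became 8 in the heart channel alone, 13 with slide as a random block, 7 with array weights and with treated replicates 3 and 4 kept separate, 1 without those replicates together and without db/+ replicate 3 and untreated db/db replicate 2 together, and 0 with slide as a fixed block. Leaving out 1 array gave 0 to 4 pathway genes for untreated db/db versus db/+ hearts, with 0 without db/+ replicate 3 or 4 and 1 without untreated db/db replicate 1 or 5 or treated replicate 1 or 5. It gave 1 to 6 for treated db/db versus db/+ hearts, with 6 without db/+ replicate 1 and 1 without db/+ replicate 3 or 4, untreated db/db replicate 2 or treated replicate 1, 2 or 5. Calls over all probes were 34, 1 and 4 with slide as a fixed block and 5033, 1 and 5127 as a random block, where the estimated correlation within slides was -0.114. For untreated db/db versus db/+ hearts, 2327 of 21458 probes passed with both channels required and 1751 of 41174 without a filter. Of 27593, 2586 passed with treated replicates 3 and 4 separate, 1726 without them, 1684 with scaling and 924 in a fit of only these groups. For treated db/db versus db/+ hearts, 3080 passed with array weights and 1324 without treated replicates 3 and 4. Without db/+ replicate 3 and untreated db/db replicate 2 it was 1796. The cause of these shifts was not tested.

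The replicate numbers did not pair the samples: deviations of same-numbered samples correlated between -0.19 and 0.05. With a replicate block 0 of the 13 probes were called, with 1 pathway gene for untreated db/db versus db/+ hearts and 1 for treated db/db versus db/+ hearts. Over all probes, 1655 and 2521 of 27593 passed in these comparisons. The reference channel alone, outlier spots kept, and the joint removal of db/+ replicate 3 and untreated db/db replicate 2 were chosen after seeing the data.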
